A study of Mus musculus with 4 samples.

Results

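Transcripts of 10 genes that write, maintain, oxidise and remove DNA methylation were followed in activated mouse T cells: Dnmt1, Dnmt3a, Dnmt3b, Dnmt3l, Uhrf1, Uhrf2, Tet1, Tet2, Tet3 and Tdg. The genes were taken by symbol, and all 10 were found among the 50600 genes of the count tables. RNA-seq was done on 4 libraries of primary T cells of strain C57BL/6NJ, which form 1 group, numbered as biological replicates 1 to 4 by the labels. The file headers name the cells Th0 and activated, with a time of 16 h; by Th0 immunologists mean CD4 cells stimulated in the absence of cytokines that direct a lineage. Sex was not collected and age is unknown, per the labels. The 4 biosamples carry the same donor identifier, and the labels do not say how many animals were used, so p-values measure only the spread between these libraries. There was no second condition, and the questions were which of these genes were transcribed, in which order, and how far the replicates lay apart. The gene tables held 46192242 to 63313389 read pairs per library.

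In mammals, cytosines followed by guanine (CpG sites) carry methyl groups that are copied after each round of DNA replication. The UHRF1 protein binds hemimethylated DNA behind the replication fork and brings in DNMT1, which methylates the new strand, while DNMT3A and DNMT3B set methylation at new sites and DNMT3L, which has no catalytic activity of its own, stimulates them in germ cells and the early embryo. TET enzymes oxidise the methyl group, and the DNA glycosylase TDG cuts out the most oxidised forms, which are then replaced by base excision repair. In T cells these enzymes are known for their part in the silencing and opening of cytokine and lineage genes.

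The libraries carried the markers of CD4 T cells. All 10 T cell markers reached 1 TPM in each library, among them Trac at 1883 ± 25.6 TPM (SD, n = 4) and Cd4 at 749 ± 30.2 TPM. TPM is the count over the gene's exonic length, scaled to the same total in each library. Of the 7 B cell markers 0 reached 1 TPM in every library, and their summed level was 9.66, 6.62, 7.25 and 2.65 TPM in replicates 1 to 4, the order kept for all values below. The summed level of 8 myeloid markers ran from 0.122 to 0.33 TPM with Cd14, S100a8, S100a9 and Mpo at 0, that of 4 NK cell markers from 0 to 0.141 TPM, and that of 4 erythroid markers from 0 to 0.101 TPM with Hba-a1, Hbb-bs and Alas2 at 0. Of the CD8 markers Cd8a lay at 0.776 ± 0.38 TPM and Cd8b1 at 57.5 ± 3.71 TPM. The libraries differed in sex-linked transcripts: Xist lay at 141, 116, 0.269 and 0.303 TPM and the Y-linked Ddx3y at 0.0597, 0.104, 39.7 and 42.8 TPM. Replicates 1 and 2 thus had the pattern of female cells and replicates 3 and 4 that of male cells, so the 4 libraries did not come from 1 animal, and their spread includes differences between animals. Whether replicates of the same pattern came from separate animals was not settled, and values are given for each library.

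Of the 10 genes 8 reached 1 TPM in every library, against 22.1% of all genes and 45.2% of protein-coding genes. The maintenance pair stood highest: Uhrf1 lay above 98.5% of protein-coding genes by mean TPM and Dnmt1 above 97.6%. Tet1 hovered around 1 TPM and Dnmt3l had no read pair in any library. From the highest mean down the order was Uhrf1, Dnmt1, Dnmt3a, Tet3, Tdg, Dnmt3b, Uhrf2, Tet2, Tet1 and Dnmt3l.

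**Figure D1:**
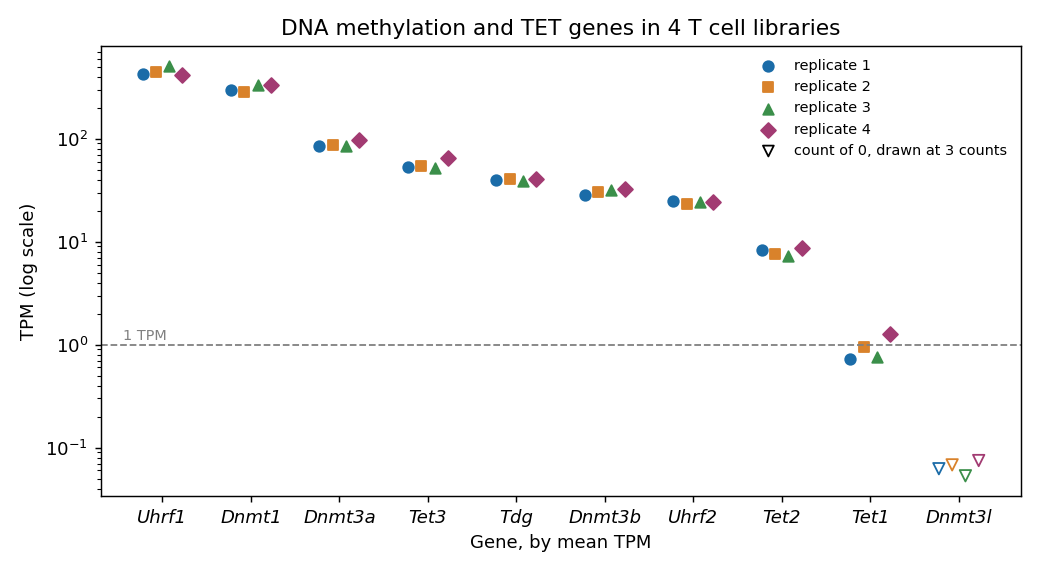
TPM (log axis) of each of the 10 genes in the 4 libraries, ordered by mean; each point is a library, and open triangles mark counts of 0, drawn at the level of 3 counts. Uhrf1 and Dnmt1 lie at 288 TPM or above in every library, and Tet1 crosses the dashed line of 1 TPM in replicate 4 alone.

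Within each library the order was the same for every pair of genes. All 45 pairs had the same direction in 4 of 4 libraries, and the ranges of the genes did not overlap in 45 of 45 pairs. Among pairs of protein-coding genes at 1 TPM or more in every library 93.8% were apart in this way. The 45 pairs include those with Tet1 and Dnmt3l, which did not meet that floor, so the sets compared are not alike. The 4 libraries cannot take an exact two-sided sign-flip permutation test below p = 0.125, and each of the 45 pairs had that value (Benjamini-Hochberg adjusted p = 0.125 over 45 pairs), so none passed 0.05. Of the 9 pairs of neighbours in this order, the closest on the log2(TPM + 1) scale were Dnmt3b over Uhrf2 (difference 0.33 ± 0.109), Tdg over Dnmt3b (0.37 ± 0.0912), Tet3 over Tdg (0.48 ± 0.142) and Uhrf1 over Dnmt1 (0.53 ± 0.134; SD, n = 4 in each). The deposited exonic length joins the exons of all isoforms, which lowers the TPM of genes with long alternative exons. With the longest annotated transcript as length, Uhrf2 passed above Dnmt3b (difference -0.67), and the ranges of Tdg (47.2 to 49.1 TPM) and Uhrf2 (45 to 47.6 TPM) overlapped.

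UHRF1 reads hemimethylated CpG sites and recruits DNMT1. Uhrf1 (ENSMUSG00000001228.14, mm10 chromosome 17, 56303321 to 56323486) lay at 429, 447, 505 and 418 TPM, a mean of 450 ± 38.7 TPM. Replicate 3 was the highest and replicate 4 the lowest, with a factor of 1.21 between them. The counts behind these values ran from 23926 to 40562 read pairs, so counting alone would give a coefficient of variation of 0.572% against the 8.59% seen. A processed pseudogene on the X chromosome, Gm5648, matches 1590 bases of Uhrf1 at 98.3% identity and held 17, 23, 47 and 24 read pairs, so reads that fit both places make the level of Uhrf1 slightly uncertain.

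UHRF2 is the close relative of UHRF1 that does not replace it in maintenance. Uhrf2 (ENSMUSG00000024817.13, chromosome 19, 30030513 to 30093722) lay at 24.9, 23.5, 24.2 and 24.2 TPM, and the 4 libraries lay within a factor of 1.06. Uhrf1 exceeded it 17.2 to 20.9 times in TPM and took 94.9 ± 0.437% of the summed TPM of both. The exonic length of Uhrf2 is 2.43 times that of its longest transcript, and with the transcript length its level was 46.3 ± 1.08 TPM, 1.91 times higher.

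DNMT1 is the maintenance methyltransferase. Dnmt1 (ENSMUSG00000004099.16, chromosome 9, 20907209 to 20959888) lay at 295, 288, 330 and 331 TPM, a mean of 311 ± 22.5 TPM, on 31450 to 45905 read pairs. Replicates 3 and 4 were the higher pair. They are the libraries with Y-linked transcripts, whose part in the Dnmt1 level was not tested. Replicate 3 was also the highest for Uhrf1, while replicate 4 was the lowest for Uhrf1. The ratio of Uhrf1 to Dnmt1 TPM ran from 1.26 to 1.55.

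DNMT3A and DNMT3B are the enzymes of new methylation. Dnmt3a (ENSMUSG00000020661.15, chromosome 12, 3806007 to 3914443) lay at 84.2, 87.3, 85.8 and 97 TPM, with replicate 4 highest. Dnmt3b (ENSMUSG00000027478.15, chromosome 2, 153649450 to 153687730) lay at 28.2, 30.7, 31.9 and 32.5 TPM, with replicate 1 lowest. Replicates 3 and 4, with Y-linked transcripts, lay above the others for Dnmt1 and Dnmt3b, but not for the other genes with counts. How many of all genes split this way was not counted, so no link to sex is drawn. Dnmt3a exceeded Dnmt3b 2.69 to 2.99 times in TPM, and Dnmt1 exceeded Dnmt3a 3.3 to 3.85 times. Of the summed TPM of the DNA methyltransferase genes (430 ± 27.6 TPM) Dnmt1 took 72.2 ± 1.15%, Dnmt3a 20.6 ± 1.01% and Dnmt3b 7.16 ± 0.276% (SD, n = 4). These shares depend on the length used: with the longest transcript Dnmt3a took 26.3%, and its level became 120 ± 7.86 TPM. Gene counts do not tell the long from the short DNMT3A isoform.

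DNMT3L, the cofactor without catalytic activity, was not detected. Dnmt3l (ENSMUSG00000000730.13, chromosome 10, 78041947 to 78063622) had 0 read pairs in all 4 libraries, which allows at most 0.0532 to 0.0748 TPM per library (3 counts, counting error only). Dnmt3c, a rodent gene next to Dnmt3b that serves the male germ line and matches 1434 bases of it at 93.9% identity, likewise had 0 read pairs in every library. Dnmt3c was named because of this match.

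**Figure D2:**
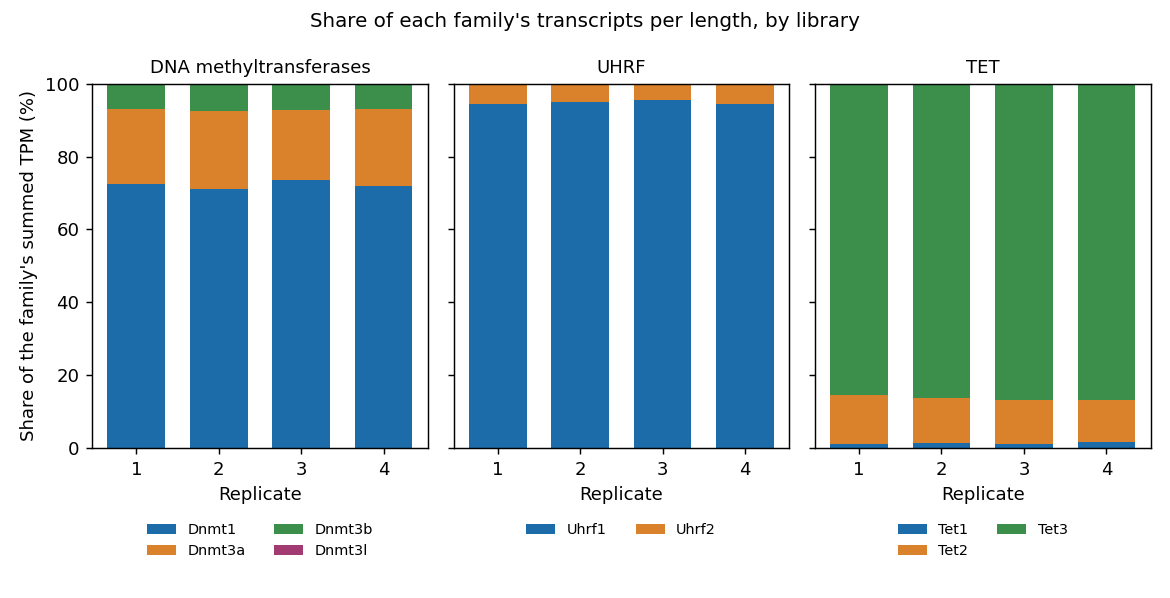
Stacked bars give the percent of each family's summed TPM taken by each gene in replicates 1 to 4, for the DNA methyltransferases, the UHRF genes and the TET genes. Dnmt1 takes 71 to 73.7%, Uhrf1 94.5 to 95.4% and Tet3 85.4 to 86.8%; Dnmt3l has no visible bar.

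Of the TET dioxygenases, Tet3 carried most transcripts. Tet3 (ENSMUSG00000034832.15, chromosome 6, 83362373 to 83459084) lay at 53.1, 54.1, 52.2 and 65.7 TPM, a mean of 56.3 ± 6.34 TPM. Replicates 1 to 3 lay within 2 TPM of each other and replicate 4 stood above them. Tet2 (ENSMUSG00000040943.12, chromosome 3, 133463679 to 133545139) lay at 8.35, 7.64, 7.27 and 8.75 TPM, and Tet3 exceeded it 6.36 to 7.52 times.

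Tet1, the TET gene best known from embryonic stem cells and early germ cells (ENSMUSG00000047146.16, chromosome 10, 62804570 to 62908996), lay at 0.733, 0.938, 0.757 and 1.26 TPM on 178, 209, 215 and 254 read pairs. It reached 1 TPM in replicate 4 alone and varied by a factor of 1.71. The difference between its libraries was larger than counting error: the coefficient of variation was 26.2%, against 6.84% from counting. Of the summed TET level (65.2 ± 7.09 TPM) Tet3 took 86.3 ± 0.634%, Tet2 12.3 ± 0.797% and Tet1 1.4 ± 0.22%.

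TDG starts the removal of oxidised methylcytosine. Tdg (ENSMUSG00000034674.18, chromosome 10, 82629828 to 82650799) lay at 39.8, 40.5, 39 and 40.3 TPM, a mean of 39.9 ± 0.663 TPM. Its coefficient of variation of 1.66% was no larger than the 1.72% that counting alone would give. The level itself is uncertain, because 3 processed pseudogenes match Tdg at 98.7 to 99.3% identity: Tdg-ps over 2968 bases, Gm9855 over 1194 bases and Gm5597 over 1193 bases. These held 2 to 31 read pairs per library, against 2907 to 3956 for Tdg, and the counting recorded no option for reads that map to several places.

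The spread between replicates was tested against that of genes of like abundance with edgeR's quasi-likelihood fit. Of the 10 genes 9 had enough counts to enter it; Dnmt3l, with no count, did not. DESeq2 dispersion outliers numbered 0 of 9, against 68 of 12285 genes. With Benjamini-Hochberg adjustment of the edgeR p over 12285 genes 0 of 9 passed 0.05, against a background of 0.228%. At an unadjusted p under 0.05 there were 2 of 9, against 5.42% of all genes tested: Uhrf1, with an SD of 0.13 log2 CPM, and Tet3, with 0.14. Their edgeR adjusted p was 0.85 each. Among all genes tested, of any abundance, 60.8% had a smaller SD than Uhrf1 and 62.9% a smaller SD than Tet3. Tet1 had the widest spread of the 9, with an SD of 0.34 log2 CPM, larger than that of 87.1% of genes tested (edgeR adjusted p = 0.972). Tdg and Uhrf2 were the steadiest, with SDs of 0.033 and 0.037, and only 5.99% and 8.08% of the genes tested had a smaller SD. Without replicate 3 the SD of Uhrf1 was 0.077, and neither gene was under the unadjusted threshold. Without replicate 4 the SD of Tet3 was 0.037, and Tet3 was no longer under it, while Dnmt1 came under it with an SD of 0.094 (edgeR adjusted p = 0.907). The SD of Tet1 was 0.2 without replicate 4.

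At its ends the library order of Uhrf1 was also that of the median of the S phase genes. From the gene's own mean in log2 CPM, Uhrf1 deviated by 0.17 in replicate 3 and by -0.13 in replicate 4. The median of 17 S phase genes deviated by 0.11 and -0.091. Among the 17 are the helicase subunit genes Mcm3 and Mcm5 and the licensing factor gene Cdc6. Not every gene had the order of the median. Cdc6 had these ends, at 65.6, 63.7, 74.7 and 58.9 TPM. Mcm3 lay at 832, 837, 938 and 876 TPM, with replicate 4 not the lowest. In replicate 3 all 17 of 17 lay above their own mean, and in replicate 4 only 1 of 17. The 12 genes of G2 and mitosis, such as Ccna2 and Aurkb, had median deviations of 0.18 in replicate 3 and -0.27 in replicate 4. Of the 110 genes of the other lists tested for spread, Slbp, which binds histone mRNA in S phase, had the profile nearest to Uhrf1. The root mean square difference was 0.045 log2 CPM, the same to this precision as for Rrm1. In TPM, not the scale of this comparison, Slbp lay at 68.2, 68.7, 76.3 and 68.6, with replicate 1 lowest. For Dnmt1 the nearest was Smchd1, a chromatin protein of the inactive X chromosome (36, 35.2, 37.6 and 39.8 TPM). Its difference was 0.041 log2 CPM, the same to this precision as for Ahcyl2. These likenesses rest on 4 libraries and are descriptions. The B cell marker sum was also lowest in replicate 4. The part of cell cycle stage or of other cells in the spread of Uhrf1 was not tested; in bulk RNA, fewer cells with a transcript and less of it per cell cannot be told apart.

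**Figure D3:**
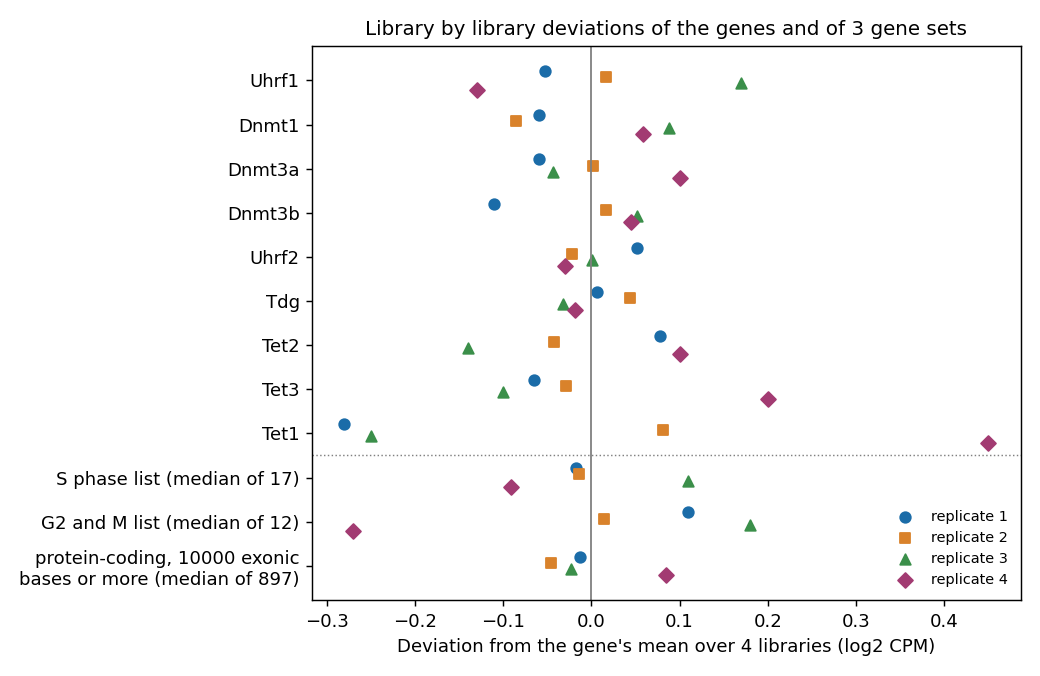
Points give each library's deviation from the gene's own mean over the 4 libraries in log2 CPM, for the 9 genes with counts and, below the dotted line, for the medians of the S phase list, the G2 and M list and long protein-coding genes. Replicate 3 lies right and replicate 4 left for Uhrf1 and both cell cycle lists, while replicate 4 lies right for Tet3, Tet1, Dnmt3a and the long genes.

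The genes with long exonic sequence were higher in replicate 4. Tet3 deviated there by 0.20, Tet1 by 0.45, Tet2 by 0.10 and Dnmt3a by 0.10 log2 CPM, and each has an exonic length over 10000 bases. The median of the 897 protein-coding genes tested with such a length was 0.085 in replicate 4, with 715 of 897 above their own mean, and that of the 1494 genes under 2000 bases was -0.068. Of the 897 long genes 144 deviated in replicate 4 as much as Tet3 or more. The part of transcript length in the Tet3 and Tet1 values was not tested.

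RefSeq promoter windows (250 bases before to 50 after each start site, GRCm38.p6) were found for 10 of 10 genes, 17 windows in all. Apart from the first Dnmt1 site, every window of the other genes held more CpG sites than those of Dnmt3l. Among all windows, 43.6%, 31.4% and 23.3% held fewer CpG sites than sites 1, 2 and 3 of Dnmt3l. Its 3 windows held 6, 4 and 3 CpG sites, while the single windows of Tet2, Dnmt3b, Uhrf2, Tdg, Tet3 and Tet1 held 57, 30, 28, 26, 22 and 17; the median of all 32851 windows was 7. Dnmt1 has 3 start sites with 2, 12 and 33 CpG sites from the most upstream one, Dnmt3a 3 with 46, 47 and 18, and Uhrf1 2 with 12 and 33. The order of CpG counts was not that of the levels, since Tet2 at 8 ± 0.671 TPM had the most. Gene counts do not say which start site was used. The 250 bases before a start site are shown for Uhrf1 (second site, chr17:56304063-56304312, plus strand), the highest gene, Tet2 (chr3:133544391-133544640, minus strand), the one richest in CpG sites, and Dnmt3l (second site, chr10:78049592-78049841, plus strand), the one without counts, each 5′ to 3′ on the gene's strand with CpG sites in capitals.
Uhrf1: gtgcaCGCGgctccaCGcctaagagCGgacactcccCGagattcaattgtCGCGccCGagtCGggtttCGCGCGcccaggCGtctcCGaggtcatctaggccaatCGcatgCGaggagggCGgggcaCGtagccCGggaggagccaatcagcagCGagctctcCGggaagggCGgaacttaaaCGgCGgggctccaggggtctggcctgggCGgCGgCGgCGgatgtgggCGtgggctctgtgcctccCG
Tet2: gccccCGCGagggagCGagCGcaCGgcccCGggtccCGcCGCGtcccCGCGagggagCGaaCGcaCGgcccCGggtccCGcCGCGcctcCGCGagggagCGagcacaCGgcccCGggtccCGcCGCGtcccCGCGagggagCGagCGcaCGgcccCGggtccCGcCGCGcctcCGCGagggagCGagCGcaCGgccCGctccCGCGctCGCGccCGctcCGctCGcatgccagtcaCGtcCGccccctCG
Dnmt3l: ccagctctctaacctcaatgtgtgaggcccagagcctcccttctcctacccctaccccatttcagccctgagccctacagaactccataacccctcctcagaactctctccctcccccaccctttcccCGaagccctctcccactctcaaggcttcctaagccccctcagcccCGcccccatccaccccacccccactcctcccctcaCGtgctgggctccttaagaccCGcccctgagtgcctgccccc
The capitals number 30 CpG sites in the Uhrf1 stretch, 51 in that of Tet2 and 4 in that of Dnmt3l.

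E2F factors switch on genes of DNA replication, and the letters TTTCGCGC or TTTGGCGC, a common form of their motif, were searched on both strands of the same windows. A match was found in 2 of 17 windows, the second Uhrf1 site and the most downstream Dnmt1 site, and in 0.813% of all windows. Both of these windows held 33 CpG sites, against a median of 7 over all windows. The letters of this motif and of the NRF1 motif named below contain CpG sites. The shares over all windows were not matched for CpG content. The 30 bases around the match are shown for Uhrf1 (chr17:56304117-56304146, plus strand), where it starts 185 bases before the start site, and for Dnmt1 (chr9:20952824-20952853, minus strand), where it lies on the opposite strand and its first base is 219 bases before the start site, inside an exon of another Dnmt1 transcript; capitals mark the match.
Uhrf1: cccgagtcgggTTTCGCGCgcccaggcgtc
Dnmt1: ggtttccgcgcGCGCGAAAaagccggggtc
The Dnmt1 window holds a second match, TTTGGCGC, that starts at base 34 after the start site. A perfect match to the palindromic motif of NRF1, a factor of respiratory genes, was found in the windows of the 2 downstream Dnmt1 sites, in no window of the other 9 genes, and in 0.971% of all windows. The letters CCAAT, the motif of the factor NF-Y, were found on either strand in 6 of 17 windows (35.3%) and in 37.4% of all windows. These are matches of letters and show no binding.

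The 6 lists of partner, reader, repair and metabolic genes had 70 to 100% of their genes at the 1 TPM floor or above in all libraries, against 45.2% of protein-coding genes, and the germline list 6.25%. All 10 partners of maintenance methylation reached 1 TPM in each library, led by the replication clamp gene Pcna (576 ± 40.7 TPM), Cdca7 (370 ± 14.5 TPM), whose product works with the remodelling factor HELLS, and the DNA ligase gene Lig1 (219 ± 12.6 TPM). Pclaf, a PCNA-binding factor, lay at 20.8, 22.5, 27.6 and 14 TPM and was the 1 of 10 that passed the spread test (edgeR adjusted p = 0.0223), again with replicate 3 highest and replicate 4 lowest. Among the S phase genes 1 of 17 passed, the ribonucleotide reductase gene Rrm2 at 147, 145, 183 and 119 TPM (edgeR adjusted p = 0.0289). Of the 12 genes of G2 and mitosis 0 passed with edgeR, though 7 of 12 lay under an unadjusted p of 0.05, as did 5 of 17 S phase genes, and DESeq2 dispersion outliers numbered 2 and 1. In the lists of readers, CXXC and TET partners, base excision repair, methyl donor cycle, 2-oxoglutarate supply and germline genes, 0 passed with edgeR. Of these genes 1, on the reader list, lay under the unadjusted threshold, and 0 were DESeq2 outliers.

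All 10 genes of the list of methyl-CpG readers and their relatives were detected. The highest were Mbd3, a subunit of the NuRD complex (424 ± 15.1 TPM), Mbd2 (67.4 ± 1.99 TPM) and Mbd1 (61.6 ± 2.66 TPM). Not every product on this list, that of Mbd3 among them, is a selective binder of methylated CpG sites. Of the CXXC and TET partners 7 of 10 were detected: Cxxc1, which binds unmethylated CpG sites, lay at 191 ± 10.4 TPM, Ogt, which adds GlcNAc and binds TET proteins, at 113 ± 8.61 TPM and Dcaf1 at 85.3 ± 2.99 TPM. Cxxc4, which lies beside Tet2 and whose product binds TET2, and Dppa3, a gene best known from the egg and early embryo, had no read pair in any library.

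Base excision repair follows TDG, and 13 of 16 of its genes were detected. The endonuclease gene Apex1 lay at 461 ± 25.6 TPM, the strand break sensor gene Parp1 at 269 ± 9.13 TPM and Gadd45b, a stress gene linked to demethylation, at 183 ± 6.54 TPM. The methyl donor is S-adenosylmethionine, and 9 of 11 genes of its cycle were detected. Mat2a, which makes it, lay at 489 ± 12.1 TPM, Mtap at 199 ± 7.04 TPM and Ahcy, which removes the product inhibitor of methyltransferases, at 172 ± 4.53 TPM, while the liver genes Mat1a and Bhmt had no count. TET enzymes need 2-oxoglutarate, and 11 of 11 genes of its supply were detected, led by Got1 (273 ± 14.6 TPM), Glud1 (182 ± 2.27 TPM) and Idh3g (172 ± 3.76 TPM).

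Of 16 germline and stem cell genes, many of which are known to be held silent by methylation in somatic cells, 1 was detected in every library, Tdrkh at 11.4 ± 0.391 TPM. Syce1 lay at 0.17, 1.25, 0.654 and 1.58 TPM and Brdt at 0.24 ± 0.0892 TPM. Mael, Tex101, Sycp1, Taf7l, Tex19.1, Asz1, Stk31, Rhox13 and Zfp42 had no read pair in any library. DNA methylation itself was not measured.

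**Figure D4:**
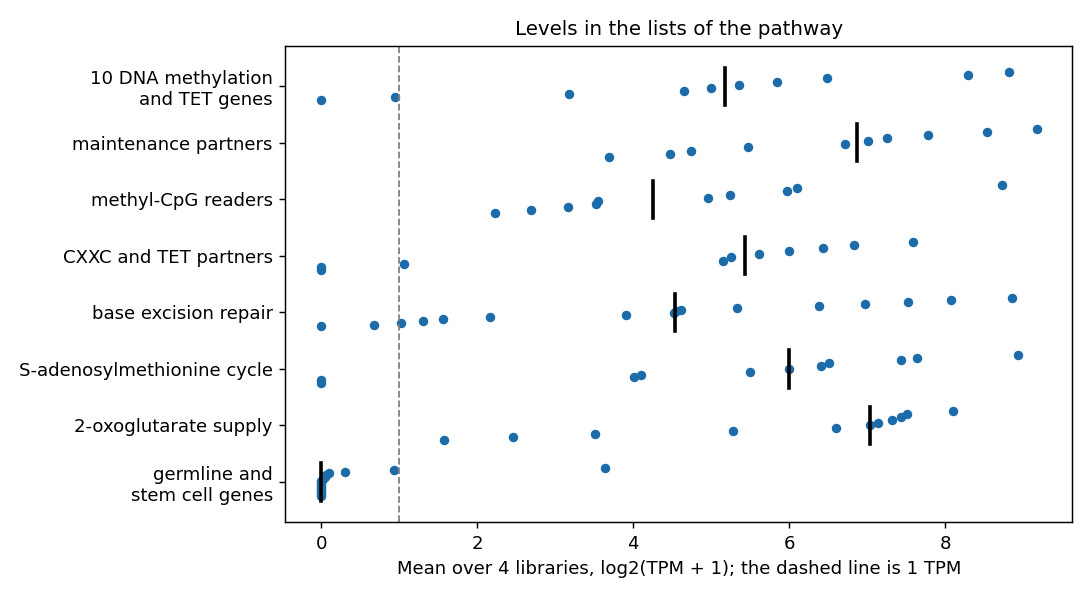
Each point is a gene's mean over the 4 libraries on the log2(TPM + 1) scale, for the 10 genes and 7 other lists; black bars are medians and the dashed line is 1 TPM. The germline list has its median at 0, and the other lists have theirs above 1 TPM.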

How the data were processed

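RNA-seq of 4 T cell libraries (1 group) was analysed. Total RNA is the assay name in the labels, but the linked library protocol is named for polyA+ RNA; which applies was not settled. Raw gene counts, in read pairs, were deposited by the authors; they were made, per the file headers, from STAR alignments (version not given in the sources used here) with featureCounts 1.4.6-p4 on GENCODE M13 exons, strand setting 2, both mates mapped, and no option recorded for multi-mapping reads. Coordinates are in mm10, per the labels. The exonic length in the deposited files gave TPM. Symbols came from GENCODE M21 (50376 of 50600 identifiers matched; the 224 others held at most 0.0111% of a library).

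Spread was tested in R 4.3.3 by edgeR 4.0.16 (normalised by TMM, filterByExpr, intercept-only design, robust quasi-likelihood; residual quasi-dispersion on 3 degrees of freedom against the prior with 13.9, upper-tail F, Benjamini-Hochberg over 12285 genes). On simulated counts for these 4 libraries (12138 genes) the test recovered 80 of 100 genes given 0.5 log2 of extra SD and 96 of 100 given 1 log2. Of 11938 others 1 was called. The extra SD was set to exactly the stated value in each gene. The SDs of the tested DNA methylation and TET genes, 0.033 to 0.34 log2 CPM, lay below both settings. The simulation therefore does not say how often spreads of their size would be found. Pairs of genes were compared with exact sign-flip permutation of log2(TPM + 1). Near-identical copies were sought by BLAST of the longest transcript against M21 transcripts (at least 300 bases at 90% identity). Other software was DESeq2 1.42.0, matplotlib 3.10.9, pandas 2.3.3, scipy 1.17.1, numpy 2.4.6 and Python 3.11.15. Intervals and limits cover counting error only. Alternatives covered scaling, filters, detection floors, pseudocounts, gene length and each replicate left out. The genes and lists were chosen with earlier results of these data known. Named are the 10 genes, of each list the 3 highest, those past the spread threshold and those without counts, the nearest profiles, and copies of the 10 genes; cell cycle and marker examples are fewer, and other genes were named after their values were seen. One gene that the rule would name is not reported here.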

Additional observations from a re-analysis of the deposited data

Results flagged for a closer look

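Tet3 was the 1 of 16 values examined (TPM of the 9 genes with counts and 7 family shares) in which a library stood apart. Its level of 65.7 TPM in replicate 4 lay above 53.1, 54.1 and 52.2 TPM in replicates 1 to 3. The gap to the nearest library took 0.856 of the whole range, above Dixon's 95% critical value for 4 samples. Chance passes this limit in about 1 of 20 groups.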

How the results depend on the processing

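The count of 8 genes at 1 TPM in every library became 9 at a floor of 0.5 TPM and stayed 8 at 5 TPM, with transcript length and with each replicate left out; 0 of 9 passed the spread test under every alternative run. Over all genes the 28 calls became 142 without a count filter, 15 without robust fitting, 68 as DESeq2 dispersion outliers, and 14 to 27 with a replicate left out (14 without replicate 3). Of the within-library differences examined, Dnmt3b minus Uhrf2 reversed to -0.67 with the longest transcript as length. With that length the shares of family TPM became 67.4% for Dnmt1, 26.3% for Dnmt3a, 6.28% for Dnmt3b, 90% for Uhrf1, 0.938% for Tet1, 14.5% for Tet2 and 84.6% for Tet3; with CPM, not per length, 58.4% for Dnmt1, 37.6% for Dnmt3a, 4.01% for Dnmt3b and 90.2% for Uhrf1. B cell markers at 1 TPM numbered 2 at a floor of 0.5 TPM, and 0 to 2 with a replicate left out (2 without replicate 4). No paired analysis was possible because there is 1 group. Depth limits Dnmt3l, where no read pair was counted.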
